A study of Mus musculus with 6 samples.

Results

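Lymphoid priming is the low expression of lymphoid genes in multipotent cells that have not yet lost their other fates. Expression of 10 genes that mark or drive it was examined, out of 49315 genes in the deposited count tables. The 10 genes were taken as a named list and not by a cutoff on measured values, but with earlier results of these data known. They were found through the GENCODE annotation of the mouse genome build GRCm38. Dntt, Rag1 and Rag2 act in the recombination of antigen receptor genes. Il7r, Notch1 and Il12rb1 encode receptors, and Ikzf1, Satb1, Ebf1 and Tcf3 encode transcription or chromatin factors.

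RNA was sequenced in bulk from 6 samples, 1 library for each of LT-HSCs, ST-HSCs and MPPs in WT C57BL/6 mice and in ING4-/- mice, with no treatment and no age in the sample labels. LT-HSCs repopulate the marrow over the long term and ST-HSCs over a shorter time, and both give rise to MPPs, the multipotent progenitors below them. ING4-/- mice carry the loss of the chromatin reader ING4 in the germline, so it is not limited to blood cells. Marrow of several mice per genotype was pooled and depleted of lineage-positive cells, and LSK CD48- cells (the Sca-1+ c-Kit+ compartment that holds stem and progenitor cells) were sorted as CD34- CD150+ LT-HSCs, CD34+ CD150+ ST-HSCs or CD34+ CD150- MPPs. With 1 library per population and genotype, the populations stood in for replicates, so p-values measure only the spread between these samples. In bulk samples, fewer cells of a type and less RNA per cell cannot be told apart.

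As background, multipotent progenitors with surface FLT3 begin to transcribe Dntt and the Rag genes, with Ikzf1 and the Tcf3 products among the factors they need, before lymphoid progenitors display the receptor for interleukin 7. Ebf1 and Notch1 then commit cells to the B and T lineages. LT-HSCs are known to express little of this programme, and the MPP gate used here did not separate cells by FLT3.

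Total counts were 7839326 to 9363442 in the WT and 35596876 to 39192588 in the ING4-/- libraries, and 36082 to 41763 genes had at least 1 count in WT against 14680 to 16188 in ING4-/-. Olfactory and vomeronasal receptor genes, which blood cells are not known to use as a class, had a read density of 22.4 (LT-HSC), 22.7 (ST-HSC) and 18.1 (MPP) counts per kb of exonic sequence in WT and at most 0.0851 in ING4-/-. This density times the exonic length of a gene is called its background here, and values for 3 libraries are given in the order LT-HSC, ST-HSC, MPP. Ing4 had 247, 162 and 247 counts in the WT libraries, with a background of 119, 121 and 96.2, against 0, 24 and 76 in ING4-/- (log2 fold change -4.49, SE 1.56, edgeR adjusted p = 0.0373). The counts are per gene and do not show on which exons the 76 counts of the ING4-/- MPPs fell. Among the sort markers, named after their values were seen, Cd34 had its highest count in the MPPs of each genotype (7281 in WT, 52899 in ING4-/-), and Slamf1, which encodes CD150, had its lowest there (336 and 299). Cd48 transcripts were counted in MPPs (376 in WT, 4300 in ING4-/-) although the gate was CD48-.

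The start regions of the recombination genes are shown because Rag1 and Rag2 lie next to each other and shared a pattern in these libraries that Dntt did not have. That pattern, 0 or 1 counts in each ING4-/- library, was also that of Il7r and Ebf1, and a link to these sequences was not tested. Each region runs from 250 bases before to 50 bases after a RefSeq transcription start in GRCm38.p6, 5′ to 3′ on the strand of the gene. Capitals mark matches to CANNTG, the E-box bound by Tcf3 products, or to TGGGAA, the core of Ikaros sites, on either strand. The windows are chr19:41029025-41029324 (plus strand) for Dntt, chr2:101649483-101649782 (minus strand) for Rag1 and chr2:101624462-101624761 (plus strand) for Rag2.
Dntt: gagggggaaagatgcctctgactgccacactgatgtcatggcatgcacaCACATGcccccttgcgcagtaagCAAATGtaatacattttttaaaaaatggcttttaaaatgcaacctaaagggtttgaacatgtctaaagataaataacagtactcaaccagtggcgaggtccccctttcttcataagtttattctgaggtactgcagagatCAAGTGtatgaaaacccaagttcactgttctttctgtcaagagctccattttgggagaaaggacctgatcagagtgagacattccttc
Rag1: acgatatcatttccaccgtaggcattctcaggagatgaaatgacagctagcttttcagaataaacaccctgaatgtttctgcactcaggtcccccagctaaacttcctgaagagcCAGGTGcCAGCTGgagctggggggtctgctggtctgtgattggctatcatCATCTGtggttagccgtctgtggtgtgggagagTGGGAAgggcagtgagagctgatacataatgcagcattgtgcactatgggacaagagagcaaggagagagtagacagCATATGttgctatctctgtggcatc
Rag2: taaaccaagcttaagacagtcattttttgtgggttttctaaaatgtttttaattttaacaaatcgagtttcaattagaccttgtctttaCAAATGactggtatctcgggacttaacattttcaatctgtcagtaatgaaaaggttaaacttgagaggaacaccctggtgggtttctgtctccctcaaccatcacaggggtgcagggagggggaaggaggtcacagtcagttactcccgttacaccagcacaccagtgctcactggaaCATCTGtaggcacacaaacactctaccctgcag
The Dntt window held 3 E-boxes and 0 TGGGAA, the Rag1 window 4 E-boxes and 1 TGGGAA, and the Rag2 window 2 E-boxes and 0 TGGGAA. In the Rag1 window 1 E-box is CAGCTG, which is also counted as CANNTG. Of 32851 RefSeq windows of 300 bases, 72.3% held CANNTG, 16.3% CAGCTG and 25.6% TGGGAA, so an E-box was common in windows of this size. RefSeq windows were matched for 9 of the 10 genes, and Il12rb1 is the other.

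The ING4-/- and WT libraries, 3 of each, were compared to ask how the genes differed with the loss of ING4. Of the 10 genes, 5 fell and 0 rose (edgeR quasi-likelihood test, called at adjusted p under 0.05 and absolute log2 fold change over 1). Rag1, Rag2, Il7r and Ebf1 had 79 to 337 counts in each WT library and 0 or 1 in each ING4-/- library, and Satb1 was lower by a log2 fold change of -1.65. Dntt, Notch1, Il12rb1, Ikzf1 and Tcf3 did not pass the test. Across all 31001 genes tested, 64.6% were called, 56.7% lower and 7.98% higher, so the share of the 10 genes called lower was near that of all genes. Their median log2 fold change was -2.55, against -6.85 over all genes tested. In 6 of the 10 (Rag1, Rag2, Il7r, Notch1, Satb1 and Ebf1) the scaled counts of the genotypes did not overlap, each lower in ING4-/-, beside 62.9% of all genes tested.

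**Figure D1:**
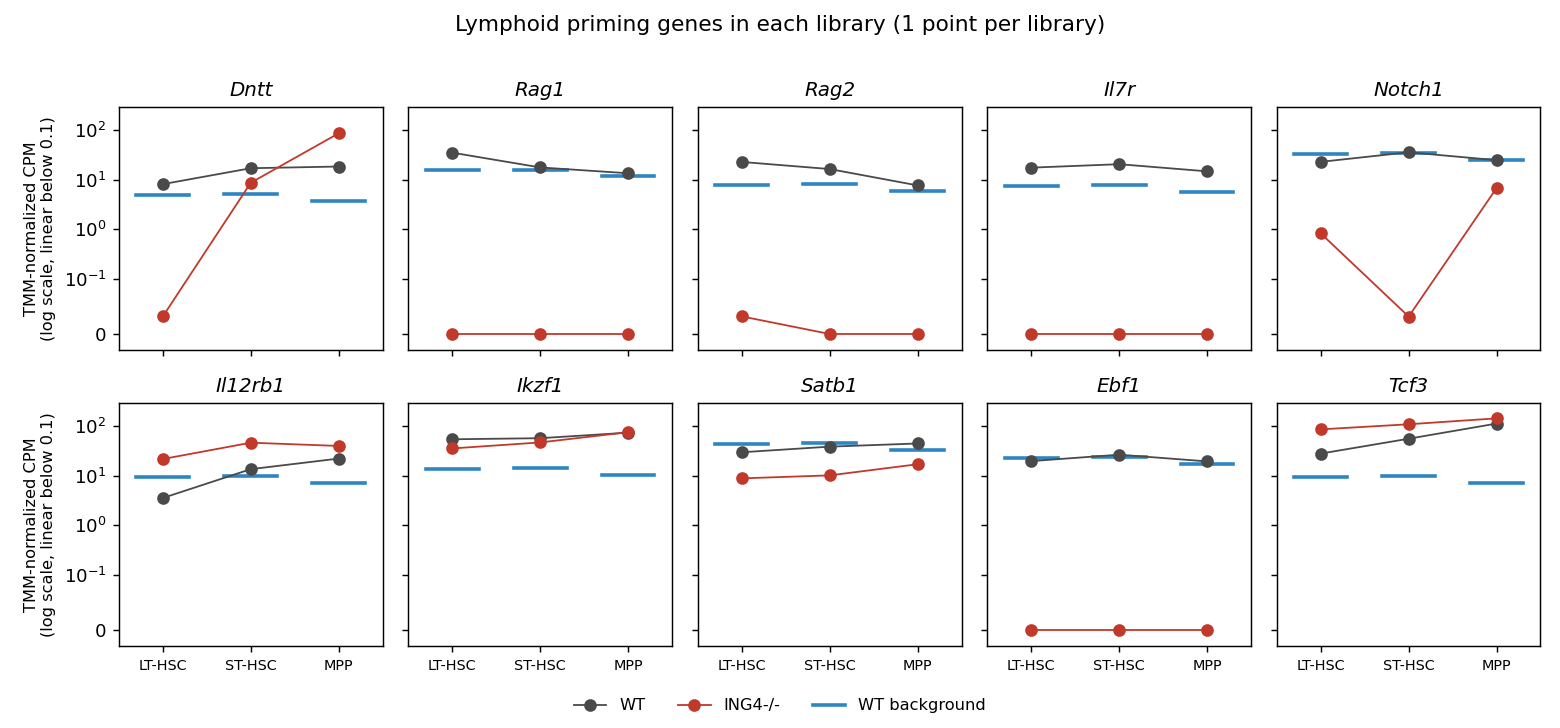
Level of each of the 10 genes in each library, as TMM-normalized counts scaled to library size (CPM) on a log axis that is linear below 0.1. There is 1 point per library, with lines joining the 3 populations of a genotype (WT grey, ING4-/- red) and blue bars for the WT background expected from exonic length; Rag1, Il7r and Ebf1 sit at 0 in every ING4-/- library, Dntt in ING4-/- runs from 0.0320 to 87.3 CPM, and the WT points of Notch1, Satb1 and Ebf1 lie near their bars.

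Dntt encodes terminal deoxynucleotidyl transferase, which adds untemplated bases where antigen receptor segments are joined. It lies on chromosome 19 (41029275 to 41059523, plus strand) with 2128 exonic bases. The WT libraries held 78 counts (LT-HSC), 160 (ST-HSC) and 190 (MPP), against backgrounds of 47.6, 48.4 and 38.5. The ING4-/- libraries held 1, 277 and 2961. The ING4-/- MPP library was the highest of the 6 and the ING4-/- LT-HSC library the lowest, so the genotypes overlapped. Mean CPM was 14.7 ± 5.66 (SD, n = 3) in WT and 32.0 ± 48.1 (SD, n = 3) in ING4-/- (log2 fold change 1.12, SE 1.73, edgeR adjusted p = 0.603). The direction turned with the population. As a log2 ratio, ING4-/- over WT was -6.03 (LT-HSC), -0.97 (ST-HSC) and 2.22 (MPP), with 1 library per genotype behind each ratio and no test of the difference. With population as a block, the fitted log2 fold change was -1.31 (edgeR adjusted p = 0.648).

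Rag1 and Rag2 encode the recombinase that cuts antigen receptor genes. They are neighbours on chromosome 2, Rag1 at 101638282 to 101649501 on the minus strand and Rag2 at 101624718 to 101632529 on the plus strand. Rag1 had 337, 166 and 139 counts in the WT libraries, over backgrounds of 148, 150 and 120, and 0 in each ING4-/- library. WT LT-HSCs were the highest, and WT ST-HSCs and MPPs were at 1.11 and 1.16 times their background. Rag1 was at least 715-fold lower in ING4-/-, a bound that sets the ING4-/- libraries together at 3 counts (log2 fold change -11.87, SE 1.12, edgeR adjusted p = 6.6e-04). The bound was 249.9-fold once the background was taken off the WT counts. Less background, the WT counts were 189, 15.8 and 19.5, so this second bound rests mainly on the WT LT-HSC library. Of the receptor genes, 64.8% to 88.7% had a lower density than Rag1 in the same WT library. Fitted log2 fold changes of genes at 0 depend on the prior count of the fit and are not bounds.

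Rag2 had 219, 154 and 79 counts in the WT libraries, over backgrounds of 76.6, 77.8 and 61.9, and 1, 0 and 0 in ING4-/-. Every WT library was above every ING4-/- library, and as for Rag1 the WT LT-HSCs were the highest and the WT MPPs the lowest. The WT level was 1511 times that of ING4-/-, with an exact 95% interval of 269.8 to 59798 that rests on the single count (log2 fold change -9.91, SE 1.29, edgeR adjusted p = 6.6e-04). With the background off the ratio was 789 (140.2 to 31284), an interval that takes the background as exact. Of the receptor genes, 69.8% to 92.4% had a lower density than Rag2 in the same WT library. Rag1 shares 80 exonic bases (1.21%) with the same-strand gene B230118H07Rik, and Rag2 shares 208 (6.07%) with it on the opposite strand. The strand setting of the counting is not given in the sources used here, so reads on shared bases cannot be told apart.

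Il7r encodes the alpha chain of the interleukin 7 receptor, on which B and T cell precursors depend. It lies on chromosome 15 (9506161 to 9529876, minus strand). The WT libraries held 168, 193 and 152 counts over backgrounds of 71.8, 72.9 and 58.0, and each ING4-/- library held 0. The WT libraries differed little among themselves (17.8 ± 2.93 CPM, SD, n = 3) and were 2.34 to 2.65 times their background, and 89.0% to 94.1% of the receptor genes behind the background had a lower density than Il7r in the same library. Il7r fell by 11.54 on the log2 scale (SE 0.956, edgeR adjusted p = 6.6e-04) and was at least 572-fold lower, or 346-fold with the background off.

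Notch1 encodes the receptor that directs progenitors to the T lineage, on chromosome 2 (26457903 to 26516663, minus strand). Its counts were 220, 336 and 255 in the WT libraries and 26, 1 and 232 in ING4-/-. Within ING4-/- nearly all counts were in the MPP library, while the WT libraries were alike. The WT counts together were less than their background, which came to 111% of them. Of the receptor genes, 51.0% to 62.3% had a lower density than Notch1 in the same WT library. Mean CPM was 28.1 ± 7.04 (SD, n = 3) in WT and 2.57 ± 3.72 (SD, n = 3) in ING4-/- (log2 fold change -3.45, SE 1.51, edgeR adjusted p = 0.0812), and the value turned to 1.61 (SE 2.20, adjusted p = 0.609) with the background off. The genotypes did not overlap before the background was taken off. Without the ING4-/- MPP library the log2 fold change was -5.98 and passed (edgeR adjusted p = 0.00924), and without the ING4-/- ST-HSC library it was -2.84 and also passed (adjusted p = 0.0412). Of its exonic bases, 1389 (9.76%) overlap genes of the opposite strand.

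Il12rb1 encodes the shared chain of the receptors for interleukins 12 and 23, on chromosome 8 (70808449 to 70821424, plus strand). It had 34, 127 and 228 counts in the WT libraries over backgrounds of 91.9, 93.3 and 74.3, and 686, 1480 and 1366 in ING4-/-. Each ING4-/- library was above the WT library of the same population, but ING4-/- LT-HSCs (21.9 CPM) were just below WT MPPs (22.4 CPM), so the genotypes overlapped. The log2 ratio of ING4-/- to WT was 2.58, 1.77 and 0.85. Over all libraries the log2 fold change was 1.46 (SE 0.714, edgeR adjusted p = 0.113). It passed under upper-quartile scaling (2.06, adjusted p = 0.0348) and without both LT-HSC libraries (1.31, adjusted p = 0.0467). It did not pass with the background off (1.78, edgeR adjusted p = 0.395) or with at least 10 counts in every library (0.985, adjusted p = 0.306).

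Ikzf1 encodes Ikaros, a DNA-binding factor that the earliest lymphoid progenitors need, on chromosome 11 (11685003 to 11772926, plus strand). It had 521, 536 and 761 counts in the WT libraries and 1123, 1498 and 2589 in ING4-/-. These WT counts were 4.03 to 7.28 times the background, and over the 3 libraries only Tcf3 of the 10 genes stood further above it. The genotypes overlapped, at 62.4 ± 10.7 CPM (SD, n = 3) in WT and 53.2 ± 20.8 CPM in ING4-/- (log2 fold change -0.23, SE 0.357, edgeR adjusted p = 0.606), and the sign turned under upper-quartile scaling (0.35, adjusted p = 0.402). The log2 ratios within the populations were -0.61, -0.28 and 0.032.

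Satb1 encodes a chromatin organiser that promotes lymphoid output from stem cells, on chromosome 17 (51736187 to 51833290, minus strand), and has 19027 exonic bases, the most of the 10 genes. Its counts were 285, 362 and 460 in the WT libraries, over backgrounds of 426, 433 and 344, and 279, 324 and 583 in ING4-/-. WT LT-HSCs and ST-HSCs were thus below the background expected from length, and WT MPPs at 1.34 times it. Of the receptor genes, 50.2% to 72.0% had a lower density than Satb1 in the same WT library. Scaled to library size, every WT library was above every ING4-/- library, at 38.0 ± 7.60 CPM (SD, n = 3) against 12.1 ± 4.44 CPM. Satb1 fell by 1.65 on the log2 scale (SE 0.459, edgeR adjusted p = 0.0148). The call was lost with population as a block (-1.69, adjusted p = 0.0536), with the trend on gene length removed (-0.01, adjusted p = 0.991) and without the WT ST-HSC library (-1.67, adjusted p = 0.0580), and the sign turned with the background off (0.96, adjusted p = 0.745). Genes on the same and the opposite strand share 0.820% and 0.673% of its exonic bases.

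Ebf1 encodes the factor that commits progenitors to the B lineage, on chromosome 11 (44617317 to 45008091, plus strand). The WT libraries held 189, 249 and 200 counts, over backgrounds of 218, 222 and 176, and each ING4-/- library held 0. Every WT library was thus within 0.866 to 1.13 times the background. Ebf1 fell by 11.86 on the log2 scale (SE 0.955, edgeR adjusted p = 6.6e-04) and was at least 711-fold lower, or 23.8-fold once the background, 96.6% of the WT counts, was taken off. Too few counts then remained for it to be tested. Less background, the WT counts were -29.3, 27.2 and 23.5, so the 23.8-fold bound holds only for their sum. Of the receptor genes, 60.1% to 65.5% had a lower density than Ebf1 in the same WT library.

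Tcf3 encodes the E proteins E12 and E47, which drive early B cell genes, on chromosome 10 (80409514 to 80433647, minus strand). It had 268, 523 and 1161 counts in the WT libraries over backgrounds of 90.4, 91.8 and 73.1, and 2722, 3487 and 4926 in ING4-/-. Each ING4-/- library was above the WT library of its population, and WT MPPs (114 CPM) were above ING4-/- LT-HSCs (87.0 CPM) and ST-HSCs (110 CPM). The log2 ratio of ING4-/- to WT was 1.62, 0.97 and 0.35. Over all libraries it was 0.79 (SE 0.504, edgeR adjusted p = 0.214). It passed both limits under upper-quartile scaling (1.38, adjusted p = 0.0412) and without the WT MPP library (1.29, adjusted p = 0.0449). With population as a block it was 0.98 (adjusted p = 0.0437), under the fold limit. With the background off it was 0.21 (edgeR adjusted p = 0.802), and with at least 10 counts in every library 0.32 (adjusted p = 0.639).

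**Figure D2:**
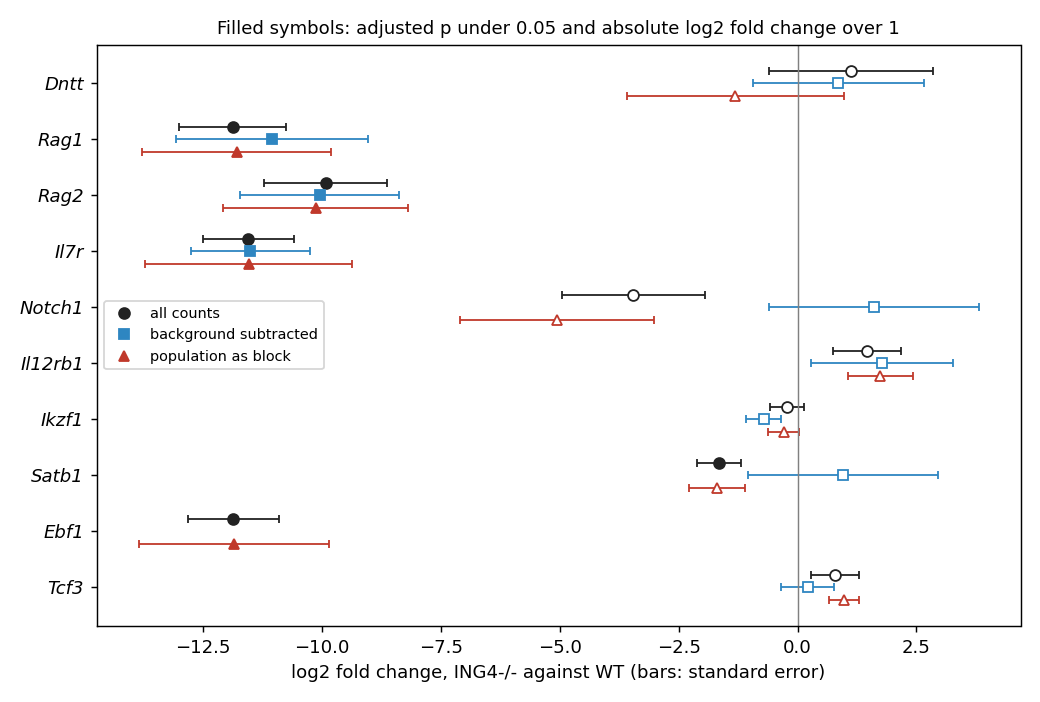
Log2 fold change of ING4-/- against WT for each of the 10 genes, with bars of 1 standard error and the line at 0 for no difference, from all counts (black circles), with the background subtracted (blue squares) and with population as a block (red triangles). Filled symbols passed the test; Rag1, Rag2 and Il7r stay below -9 in all 3 fits, Notch1 and Satb1 cross 0 when the background is subtracted, and Ebf1 has no square because it was not tested.

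The WT background and the genotype moved together in these libraries. Taken over the 3 WT libraries, background was 13.1% of the counts of Tcf3, 20.1% of Ikzf1, 31.4% of Dntt, 39.5% of Il7r, 47.9% of Rag2, 65.1% of Rag1, 66.7% of Il12rb1, 96.6% of Ebf1, 109% of Satb1 and 111% of Notch1. With the background subtracted, 9 of the 10 genes could be tested and 3 were called lower (Rag1, Rag2 and Il7r), where 38.6% of 19674 genes were called lower. These 3 log2 fold changes were then -11.04 (SE 2.02, edgeR adjusted p = 0.00698), -10.04 (SE 1.67, adjusted p = 0.00221) and -11.50 (SE 1.26, adjusted p = 0.00207). When background subtraction and the population block were used together, an alternative chosen after seeing the data, each of the 3 had an adjusted p of 0.0820 and 0 of 9 genes were called. When each library had to hold at least 10 counts of a gene, 4 of the 10 were tested (Il12rb1, Ikzf1, Satb1 and Tcf3) and 1 was called, Satb1, where 18.0% of 9673 genes were called. The part of the background in the calls beyond these values was not tested.

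Lymphoid priming is placed at the MPP stage, so MPPs were compared with LT-HSCs with genotype as a term. In both genotypes Dntt, Ikzf1, Satb1 and Tcf3 had higher CPM in ST-HSCs than in LT-HSCs and higher again in MPPs. These were 4 of the 10 genes, beside 2.61% of the 31001 genes tested, and with at least 10 counts in every library they were 3 of 4 (Ikzf1, Satb1 and Tcf3), beside 5.85% of 9673 genes. The edgeR test called 0 of the 10 genes, as it called 0 (0%) of 31001, of which 561 had an unadjusted p under 0.05. DESeq2 called 435 of 44670 genes and 0 of the 10. With 2 libraries per population and 2 residual degrees of freedom, the edgeR adjusted p was 0.999983 for each of the 10.

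The steps differed in size between the genes. Tcf3 had the lowest unadjusted p of the 10 (0.0168, the edgeR test) with a log2 difference of MPPs over LT-HSCs of 1.37 (SE 0.398). In counts scaled to library size, Tcf3 was 4.04-fold higher in MPPs than in LT-HSCs in WT (95% counting interval 3.53 to 4.63) and 1.67-fold higher in ING4-/- (1.59 to 1.75). Ikzf1 was 1.36-fold (1.22 to 1.52) and 2.13-fold higher (1.98 to 2.28), with a log2 difference of 0.77 (SE 0.396) in the fit. Its levels in the LT-HSCs and ST-HSCs of WT, 54.9 and 57.7 CPM, were the closest neighbours in ratio among the steps of these genes. Satb1 was 1.504-fold (1.29 to 1.75) and 1.93-fold higher (1.67 to 2.23), although the WT LT-HSC and ST-HSC counts were below background. Its fitted log2 difference was 0.77 (SE 0.711), and 6.58 (SE 4.04) with the background off. The intervals cover counting error in single libraries and not the spread between mice or pools of mice.

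Dntt had the largest fitted log2 difference of MPPs over LT-HSCs among the 10 genes, at 4.82 (SE 2.78), which ran from 2.03 without the ING4-/- MPP library to 10.51 without the WT LT-HSC library. With the background off it was 5.71, below the 6.58 of Satb1. The ING4-/- MPPs exceeded the ING4-/- ST-HSCs 9.96-fold (8.81 to 11.3), and the ING4-/- LT-HSCs, with their 1 count, 2732-fold (489.9 to 107939). In WT the MPPs exceeded the LT-HSCs 2.27-fold (1.73 to 2.99) and the ST-HSCs 1.08-fold, with an interval from 0.872 to 1.34 that spans equal levels. This MPP over LT-HSC step of WT was smaller than those of Tcf3 and of Il12rb1, whose WT LT-HSC count was below background. Flt3, the cytokine receptor that marks progenitors with lymphoid potential, was named after its values were seen. It had 1, 991 and 10829 counts in the ING4-/- libraries and 286, 474 and 1956 in WT. The ING4-/- MPPs thus exceeded the ING4-/- ST-HSCs 10.2-fold in Flt3 (9.54 to 10.9), close to the step of Dntt, and the WT MPPs exceeded the WT ST-HSCs 3.76-fold (3.40 to 4.17). Flt3 belongs to the early lymphoid progenitor markers, a list whose fitted log2 differences of MPPs over LT-HSCs had a median of 0.10 over 10 tested genes and went down to -2.61 for Vpreb1.

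The other genes did not share this order. In WT, Rag1 and Rag2 were lowest in MPPs, at 0.384-fold (0.313 to 0.470) and 0.336-fold (0.256 to 0.437) of the LT-HSC level. Il7r and Ebf1 of WT MPPs were at 0.843-fold (0.672 to 1.06) and 0.986-fold (0.804 to 1.21) of LT-HSCs, intervals that span equal levels. Against WT ST-HSCs, Il7r and Ebf1 of WT MPPs were at 0.718-fold (0.576 to 0.892) and 0.732-fold (0.605 to 0.885), intervals below equal levels. Il12rb1 was 6.25-fold higher in WT MPPs than LT-HSCs (4.34 to 9.24), although the WT LT-HSC count of 34 was below its background of 91.9. In ING4-/- Il12rb1 was highest in ST-HSCs. Notch1 in ING4-/- was 8.23-fold higher in MPPs than in LT-HSCs (5.48 to 12.9) and 216-fold higher than in ST-HSCs (38.4 to 8578, resting on 1 count), while in WT the MPPs were at 1.08-fold (0.898 to 1.30) of LT-HSCs. Fitted log2 differences of these 6 genes ran from -2.01 for Rag2 to 2.31 for Notch1.

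Levels between genes were compared per kb of exon. In ING4-/- MPPs the order of CPM per kb was Dntt (41.0), Tcf3 (36.0), Ikzf1 (13.2), Il12rb1 (9.81), Satb1 (0.903) and Notch1 (0.481), with Rag1, Rag2, Il7r and Ebf1 at 0. In ING4-/- LT-HSCs the order was led by Tcf3 (21.5), Ikzf1 (6.21) and Il12rb1 (5.34), and Dntt was at 0.0150. In WT MPPs Tcf3 (28.2) and Ikzf1 (12.9) led, followed by Dntt (8.76) and Il12rb1 (5.45). The factor genes Tcf3 and Ikzf1 were therefore among the 3 highest in each of these libraries, and Dntt led in ING4-/- MPPs. No replicate of a population exists within a genotype, so neighbours in these orders cannot be separated by replicate spread.

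**Figure D3:**
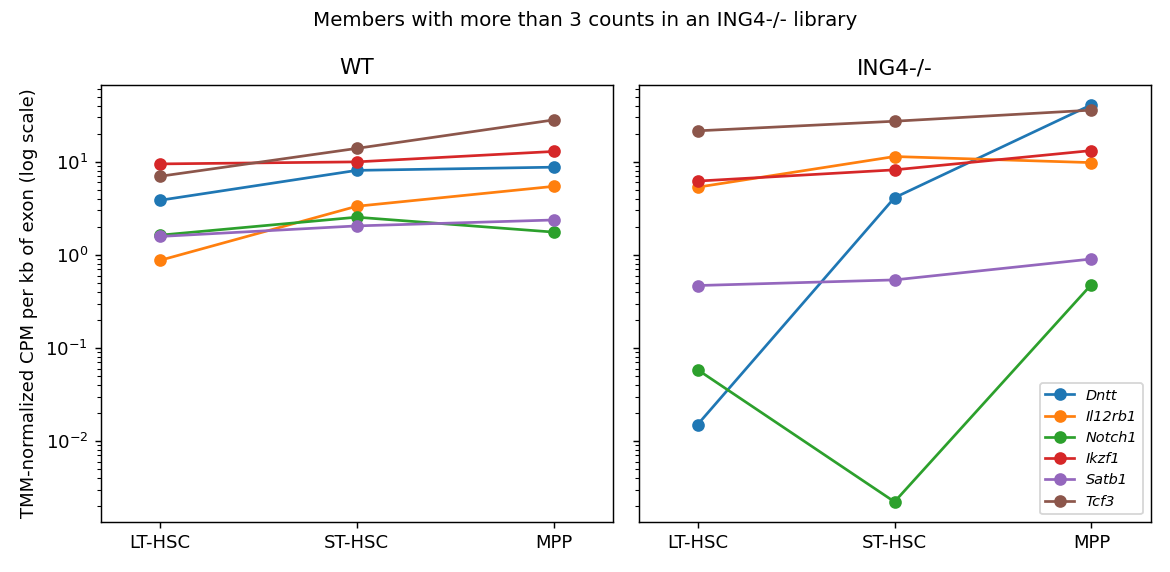
TMM-normalized CPM per kb of exon (log axis) in LT-HSCs, ST-HSCs and MPPs of WT (left) and ING4-/- (right), 1 point per library, for the 6 genes with more than 3 counts in at least 1 ING4-/- library. Tcf3, Ikzf1, Satb1 and Dntt climb in both panels, and Dntt in ING4-/- goes from 0.0150 to 41.0 CPM per kb.

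Genes that work with the 10 were read from lists written with earlier results in view, in the ING4-/- against WT comparison. Shares of all genes called, for reading the counts of these lists, are the 7.98% higher and 56.7% lower given above. Of 12 end joining and recombination partners, 1 rose and 3 fell (median log2 fold change -0.25). Hmgb1, a DNA-bending protein that assists the Rag recombinase, rose by 1.30 on the log2 scale (SE 0.218, edgeR adjusted p = 0.00132), from 486 ± 64.0 to 1197 ± 304 CPM (SD, n = 3). With the background off it was 0.51 (adjusted p = 0.0741). Prkdc, the kinase of the end joining complex, fell by 1.39 (SE 0.299, adjusted p = 0.00437), and by 1.65 (adjusted p = 0.00530) with the background off. Its call was lost with the length trend removed (-0.31, adjusted p = 0.545).

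The cytokine receptor partners held 15 tested genes, of which 1 rose and 1 fell (median 0.48), beside 7.98% and 56.7% of all genes. Socs1, an inhibitor of JAK kinases, rose by 1.96 on the log2 scale (SE 0.569, edgeR adjusted p = 0.0180) from 19, 29 and 42 counts in WT to 363, 311 and 491 in ING4-/-. The WT counts were near their background of 27.3, 27.7 and 22.1, and Socs1 did not pass with population as a block (adjusted p = 0.213). It also did not pass with the background off (3.36, edgeR adjusted p = 0.121) or with at least 10 counts in every library (1.46, adjusted p = 0.0593). Of 21 alternatives, 11 kept its call and direction.

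In the Notch pathway 24 of 25 genes were tested, 6 rose and 3 fell (median 0.075), beside 7.98% and 56.7% of all genes. Maml2, a coactivator of Notch targets, fell by 2.55 on the log2 scale (SE 0.489, edgeR adjusted p = 0.00243), and by 2.76 (adjusted p = 0.00555) with the background off. Psen2 and Psenen, subunits of the gamma-secretase that releases the Notch intracellular domain, rose by 1.69 (SE 0.432, adjusted p = 0.0101) and 1.59 (SE 0.278, adjusted p = 0.00160). Ncstn and Aph1a, subunits named after their values were seen, were called at 1.01 and 1.31. With the background off, Psen2 kept its call at 1.52 (adjusted p = 0.0434), while Psenen at 0.87 (adjusted p = 0.0465), Ncstn at 0.36 (adjusted p = 0.285) and Aph1a at 1.46 (adjusted p = 0.0816) did not. Of the 16 genes of the list tested there, 2 rose, Psen2 and Lfng, a modifier of Notch receptors named after its values were seen, and 1 fell, Maml2, beside 5.65% and 38.6% of all genes. Where each library held 10 counts or more, 14 were tested, 1 rose, Psenen, and 1 fell, Maml2, beside 8.30% and 9.68% of all genes.

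Of 27 other lymphoid transcription factors, 0 rose and 12 fell (median -0.81), beside the 56.7% of all genes called lower. In 11 of the 12, each ING4-/- library had 3 counts or fewer, and 9 genes of the list were at 0 in every ING4-/- library, the B lineage factors Pax5, Pou2af1, Irf4 and Ikzf3, the T lineage factors Tcf7, Lef1 and Bcl11b, and Ebf2 and Ebf4. Ikzf2, an Ikaros relative known from stem and T cells, was the other and fell by 1.44 on the log2 scale (SE 0.461, edgeR adjusted p = 0.0271). It was at -1.81 (adjusted p = 0.0147) with the background off, and its call was lost without the WT LT-HSC (adjusted p = 0.0599), WT ST-HSC (0.0543) or ING4-/- ST-HSC library (0.0691). Over 21 alternatives Ikzf2 ran from -2.23 to -0.55, and 13 of them kept call and direction. With the background off, 1 factor of 16 tested rose and 1 fell, beside 5.65% and 38.6% of all genes. The 9 genes at 0 in ING4-/- had too few counts left to be tested there. Of all 49315 genes, 14680 to 16188 had at least 1 count in an ING4-/- library.

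Of 11 early lymphoid progenitor markers, 10 were tested, 1 rose and 3 fell (median -0.71), beside 7.98% and 56.7% of all genes. Blnk, Cd79a, Igll1 and Ly6d had 0 counts in every ING4-/- library. Cd79b, a chain of the B cell receptor complex, rose by 1.60 on the log2 scale (SE 0.312, edgeR adjusted p = 0.00269), from 28.3 ± 3.01 to 85.7 ± 24.2 CPM (SD, n = 3), and was at 0.97 (adjusted p = 0.0517) with the background off. In MPPs against LT-HSCs, edgeR called 0 genes of these lists.

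**Figure D4:**
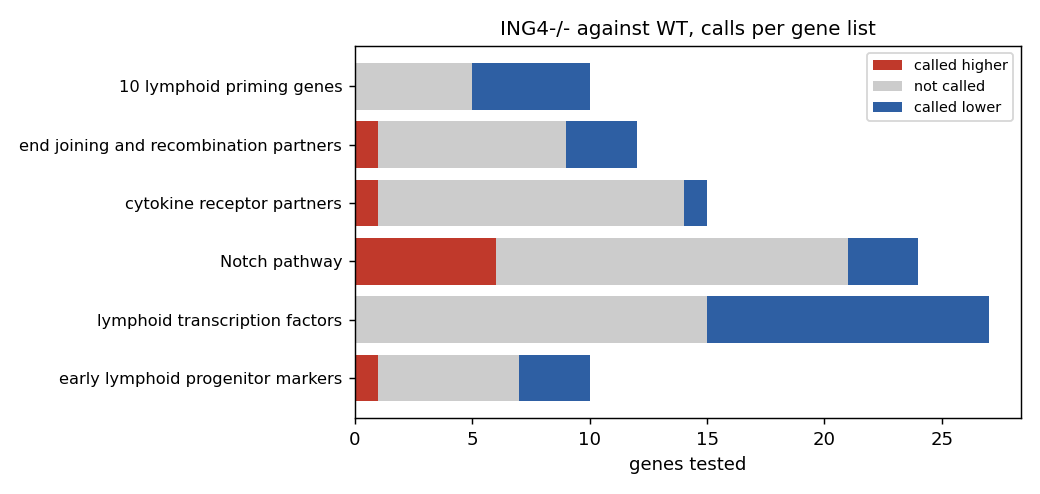
Number of genes called higher (red), not called (grey) and called lower (blue) in ING4-/- against WT for the 10 genes and for the lists of genes that work with them, by the edgeR test on all counts. The 10 genes hold 5 called lower and 0 higher, the lymphoid transcription factors 12 lower and 0 higher, and the Notch pathway 6 higher and 3 lower.

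Markers of mature cells were read beside these results. Of 8 B cell markers 5 fell and 0 rose, beside 56.7% and 7.98% of all genes, and Ighd and Ms4a1 had 0 counts in every ING4-/- library. The summed B cell marker level was 109 to 142 CPM in WT and 56.0 to 233 CPM in ING4-/-. Of 8 T and NK cell markers tested 4 fell and 0 rose, Cd2, Cd3e, Cd3g, Cd8a and Ncr1 were at 0 in every ING4-/- library, and the sum was 95.2 to 196 CPM in WT and 82.8 to 321 CPM in ING4-/-. Granulocyte markers summed to 31.0 to 185 CPM in WT and 73.7 to 318 CPM in ING4-/- with 1 of 6 tested called higher, and erythroid markers to 19.1 to 32.1 CPM and 88.3 to 184 CPM with 4 of 7 called higher and 1 lower, Alas2, which was at 0 in ING4-/-. The part of other cells in the levels of the 10 genes was not tested.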

How the data were processed

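RNA of LT-HSCs, ST-HSCs and MPPs from pooled marrow of WT and ING4-/- mice was measured in 6 libraries by bulk RNA-seq. The authors deposited raw read counts per gene, without normalization, for 49315 genes. The submitters' processing notes name mm10, and the aligner, the counter and the strand setting are not given in the sources used here. Of the identifiers, 49056 were found in GENCODE for GRCm38 and 259 were not, and 44858 had the same start and end.

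From the counts, ING4-/- was compared with WT in edgeR 4.0.16 (R 4.3.3) with TMM factors and the quasi-likelihood F test on genes kept by filterByExpr (grouped by genotype), and MPPs with LT-HSCs with genotype as a term. Adjusted p-values are Benjamini-Hochberg values over all genes tested. A standard error is the size of the log2 fold change over the square root of F. The study compared the populations together, so they stood in for replicates. Libraries of one population deviated together from their genotype means (over 9673 genes, r of 0.143 (LT-HSC), 0.110 (ST-HSC) and 0.121 (MPP)), which pairs the libraries by population, and a fit with this block was an alternative. No duplicate deposit was found, since chi-square per degree of freedom between libraries of a genotype was 14.1 or more. Ratios within a population are differences of log2 CPM with a prior count of 2. Intervals for counts and ratios are exact at 95%, and the limit for a count of 0 is 3 counts, or 0.0765 to 0.383 CPM by library. Molecular identifiers are not mentioned in the sources used here, so reads may not be independent molecules, and these intervals and limits cover counting error only.

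The background per kb came from 1431 olfactory and vomeronasal receptor genes, and was 22.6% to 33.4% of WT counts when applied to every exon. Receptor genes spread widely around it, from 0 to 77.9 counts per kb between the 5th and 95th percentiles in WT LT-HSCs. The median receptor gene lay below it, at 14.8 (LT-HSC), 17.3 (ST-HSC) and 14.2 (MPP) counts per kb in WT. Other alternatives were DESeq2 1.42.0, other normalizations and filters, thinning, protein-coding genes alone, removal of a length trend, and leaving out libraries or populations. The fits were tested on simulated data drawn from the ING4-/- means and the library totals.

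The 10 genes, the lists and the named-gene rule were chosen with earlier results of these data known. From each list the text names up to 3 called genes with the largest change, at least 10 counts in every library and one direction in the 3 populations. Promoter windows are from RefSeq. Figures and tables used Python 3.11.15 with pandas 2.3.3, numpy 2.4.6 and matplotlib 3.10.9. Flow cytometry and transplantation data were not analysed here.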

Additional observations from a re-analysis of the deposited data

Results flagged for a closer look

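The log2 ratio of ING4-/- to WT had different signs between populations for 2 of the 10 genes, with 1 library per genotype in each population, so the difference was not tested. For Dntt it was -6.03 (LT-HSC), -0.97 (ST-HSC) and 2.22 (MPP). For Ikzf1 it was -0.61, -0.28 and 0.032, and in MPPs the ratio of 1.02 had a 95% counting interval of 0.942 to 1.11, which spans equal levels.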

How the results depend on the processing

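In ING4-/- against WT, the values of the 10 genes under the alternatives kept direction and call in 171 cases, gained the call in 7, lost it in 8 and changed sign in 10. The 5 calls became 1 with at least 10 counts in every library (1739 calls over all genes, not 20041), 3 with the background subtracted (8699), 0 with at least 10 counts and the length trend removed (1030) and 0 with the background subtracted and population as a block (396, chosen after seeing the data). Protein-coding genes alone gave 8637. Fewer genes were tested in each, and of the 5 called genes only Satb1 entered the fits with at least 10 counts. With population as a replicate block 4 genes were called, Satb1 lost its call and Dntt turned to -1.31. Background subtraction turned Notch1 to 1.61 and Satb1 to 0.96, and with the block it turned Dntt to -1.67, Notch1 to 4.01 and Satb1 to 5.97. Upper-quartile scaling shifted the median gene by 0.55 and turned Ikzf1 to 0.35, and DESeq2 factors shifted it by -0.33. Without both MPP libraries Dntt was -1.72. Leaving out 1 library gave -1.71 to 1.74 for Dntt, negative without ING4-/- MPPs, and -0.56 to 0.014 for Ikzf1, positive without ING4-/- LT-HSCs. Named genes of the other lists kept call and direction in 129 values and lost the call in 39. In MPPs against LT-HSCs, 143 values kept both and 4 changed sign, and 0 of the 10 genes was called throughout. DESeq2 called 435 genes in all, and at least 10 counts gave 2, also with the length trend removed. Leaving out 1 library gave 2.03 to 10.51 for Dntt, -0.28 to 0.21 for Ebf1, -0.31 to 0.12 for Il7r and -1.41 to 3.73 for Notch1. The causes of these changes were not tested. Depth limits Rag1, Il7r and Ebf1 in ING4-/- to upper limits, and Rag2 rests there on 1 count.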
